A study of Rattus norvegicus with 6 samples.

Results

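The serine and one-carbon metabolism genes examined here were Phgdh, Psat1, Psph, Shmt1, Shmt2, Mthfd1, Mthfd2, Mthfd1l, Aldh1l2 and Asns. They were chosen by their symbols, with earlier results of these data known. They are 10 of the 17327 genes in the count tables, and all 10 passed the filter on low counts that left 9740 genes for the test. They were read in primary Schwann cells, the glia of peripheral nerve, grown from the sciatic nerves of adult Wistar rats, with 3 mock and 3 NRG1 samples. Cells of both groups had been grown in medium with 10% foetal bovine serum, 63 ng/mL glial growth factor and forskolin at 10 μM, which activates adenylyl cyclase. Glial growth factor is itself a form of neuregulin 1, and the study's methods name recombinant NRG1β1 in its place, so the mock cells too had been exposed to a neuregulin before starvation. Both were starved for 18 h at confluence in medium with 2% serum and 10 μM forskolin. The NRG1 samples then received 10 nM recombinant soluble NRG1β1 for 6 h, and the mock samples the same volume of its buffer, phosphate-buffered saline with bovine serum albumin. Each of the 3 cultures, an independent preparation of cells, gave 1 mock and 1 NRG1 sample with the same number, so forskolin was present in every sample and no group shows the cells without it.

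Serine is made from the glycolytic intermediate 3-phosphoglycerate by Phgdh, Psat1 and Psph acting in turn. Serine hydroxymethyltransferase then passes a carbon of serine to tetrahydrofolate and leaves glycine, with Shmt2 in mitochondria and Shmt1 in the cytosol. The folate-bound carbon is oxidised to formate in mitochondria by Mthfd2 and Mthfd1l and taken up again in the cytosol by Mthfd1, from where it serves the synthesis of purines, thymidylate and methionine. Asns makes asparagine and, like several genes of serine synthesis and of the mitochondrial folate cycle, is a known target of the transcription factor ATF4. Proliferating cells are known to draw on this pathway, and serine is also a precursor of the sphingolipids of myelin.

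Counts on genes ranged from 6821590 to 15475018 per sample, and the NRG1 sample was the larger in each culture, by 1.01 to 1.30 times. Levels are given as CPM, counts scaled to library size with TMM factors, and a level of 3 counts corresponded to 0.19 to 0.44 CPM. Transcript lengths were not used here, so levels are compared between samples and not between genes. Culture 1 stood apart from the others. Its Schwann cell markers (11 of the 12 on the list were in the table, among them Sox10 and Erbb3) summed to 5148 and 7171 CPM, against 13517 to 18701 CPM in the other 4 samples. By group the Schwann cell list summed to between 7171 and 18701 CPM in mock and between 5148 and 13659 CPM in NRG1 samples. With NRG1, 6 of its 10 tested genes fell, against 5.51% of all genes tested, Sox10 and Erbb3 not among them. The 8 fibroblast markers summed to between 13621 and 31089 CPM in mock and between 13414 and 34559 CPM in NRG1 samples, and 0 of the 2 tested genes passed in edgeR (0 also at an unadjusted p under 0.05 and in DESeq2). Of the 8, Thy1, Dcn, Lum and Tbx18 had counts in culture 1 only: Dcn was at 611.2 CPM in its mock and 427.0 CPM in its NRG1 sample and at 0 in the other 4, while Col1a1 was high in all 6, between 13413 and 32087 CPM. Outside culture 1 the sums were therefore almost wholly Col1a1. There Pdgfra reached at most 1.61 CPM and Fap at most 0.08 CPM. Col1a2 had 2 counts in the NRG1 sample of culture 2 and 0 in every other sample. Macrophage markers summed to at most 10.3 CPM and endothelial markers to at most 15.2 CPM in any sample. In bulk samples such as these, fewer cells of a type and less RNA per cell cannot be told apart.

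Of the 10 genes, Shmt2, Shmt1, Mthfd1 and Mthfd1l rose with NRG1 and no gene fell. The question asked of each was whether its level differed between NRG1 and mock within cultures, tested with edgeR's quasi-likelihood test, which kept the culture as a block and called a gene at an adjusted p up to 0.01. Over all genes tested, 6.31% rose and 5.51% fell by this rule. The median log2 fold change of the 10 was 0.38, against -0.03 over all genes tested. As the 10 were chosen with earlier results known, their counts and median beside those of all genes are a description. Shmt2 alone also passed the study's second criterion, a log2 fold change over 1 in either direction. Both criteria together were met by 1.56% of all genes upwards and 1.91% downwards. For the count of 0 genes that fell, edgeR also gave 0 at an unadjusted p under 0.05, and DESeq2 gave 0. The 4 genes that rose were those in which all NRG1 samples lay above all mock samples, a pattern found in 10.2% of all genes, and no gene had all NRG1 samples below all mock samples (9.94% of all genes). A higher NRG1 sample in each of the 3 cultures was seen in 6 of the 10, against 25.9% of all genes. Without culture 1 the test called 2 of the 10, Shmt2 and Mthfd1. Without the block it called none of the 10 (smallest adjusted p 0.139) and 0 of all 9740 genes.

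**Figure D1:**
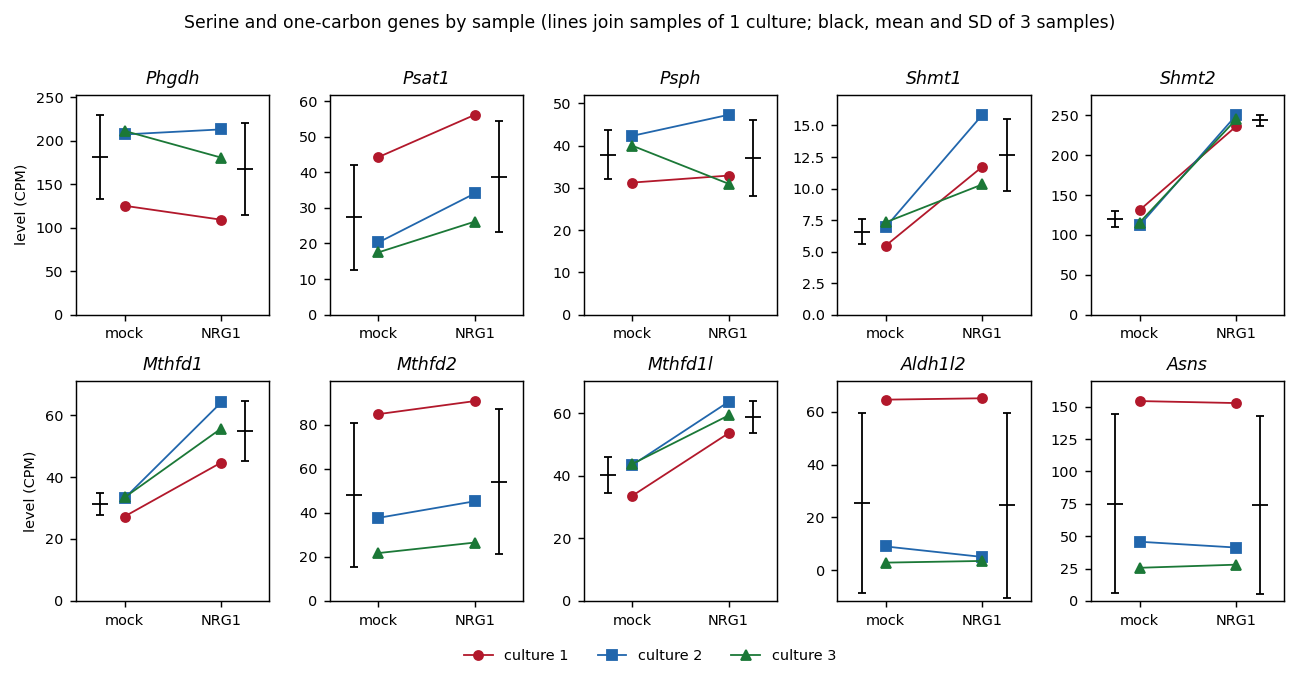
Levels of the 10 serine and one-carbon genes in CPM (vertical axes, linear, 1 panel per gene) in mock and NRG1 samples; coloured lines join the samples of 1 culture, and black bars give the mean and SD of 3 samples. Shmt2, Shmt1, Mthfd1 and Mthfd1l stand higher in every NRG1 sample than in any mock sample, whereas Aldh1l2, Asns and Mthfd2 are set apart mainly by culture 1.

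Shmt2, which yields glycine and folate-bound carbon in mitochondria, doubled. Its levels in mock cultures 1, 2 and 3 were 131.1, 112.0 and 115.5 CPM, and in NRG1 cultures 1, 2 and 3 they were 236.2, 250.1 and 244.9 CPM. The groups did not overlap, and the spread within each was small, with means of 119.5 ± 10.1 (SD, n = 3) and 243.7 ± 6.99 CPM (SD, n = 3). The fitted log2 fold change was 1.03 ± 0.12 (SE, 95% interval 0.77 to 1.29, adjusted p = 5.39e-05), a fold change of 2.04. It held the 55th place by p-value among the genes with a higher level. Its value lay close to the study's 2-fold limit and was 0.97 without culture 2, where it was still called by adjusted p.

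Shmt1, the cytosolic counterpart, had far fewer reads. Its counts were 41, 47 and 93 in mock cultures 1, 2 and 3 and 88, 141 and 160 in NRG1 cultures 1, 2 and 3. In CPM this was 5.48, 6.95 and 7.33 in mock and 11.7, 15.8 and 10.3 in NRG1, so that every NRG1 sample stood above every mock sample. On the log2 scale the rise was 0.89 ± 0.21 (SE, 95% interval 0.46 to 1.33, adjusted p = 0.00639). The call was lost under several alternatives, with an adjusted p of 0.0261 in DESeq2, 0.0127 without culture 1 and 0.0337 without culture 2. The log2 ratio of Shmt2 exceeded that of Shmt1 by -0.22, -0.01 and 0.60 in cultures 1, 2 and 3, a mean of 0.12 ± 0.43 (SD, n = 3). A difference in response between the mitochondrial and the cytosolic gene was not detectable, with p = 1 in an exact two-sided sign permutation test over 3 pairs, which cannot give a p below 0.25.

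The sequences before the start sites of Shmt2 and Shmt1 are shown because both genes rose while their upstream sequences differ in the E-box, the motif CACGTG bound by MYC and related factors. They come from RefSeq on GRCr8, a later build than the one used for the counts, and each lies before every annotated transcript of its gene. That of Shmt2 is chr7:65249581-65249817 and that of Shmt1 is chr10:45990342-45990591, both on the minus strand and written 5′ to 3′ along the gene, with E-boxes in capitals.
Shmt2: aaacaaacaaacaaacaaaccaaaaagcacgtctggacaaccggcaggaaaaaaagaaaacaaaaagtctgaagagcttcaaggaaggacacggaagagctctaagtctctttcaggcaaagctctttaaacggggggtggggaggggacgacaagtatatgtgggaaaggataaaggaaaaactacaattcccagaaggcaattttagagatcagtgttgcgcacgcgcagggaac
Shmt1: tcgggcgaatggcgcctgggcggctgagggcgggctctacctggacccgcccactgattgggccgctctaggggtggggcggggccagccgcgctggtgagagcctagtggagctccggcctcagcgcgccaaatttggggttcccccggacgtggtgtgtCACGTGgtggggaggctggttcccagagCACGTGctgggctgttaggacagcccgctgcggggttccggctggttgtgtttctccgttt
The match in Shmt1 occurred at 2 places, beginning 89 and 61 bases before the start site, and Shmt2 had none. In windows of 250 bases before to 50 after the start, available for 8 of the 10 genes, only Shmt1 held CACGTG, which reads the same on both strands. The motif was present in 6.65% of 27457 promoters of that length. The C/EBP-ATF response element, searched on both strands as TGATGNAA, was in 0 of the 8 windows and in 3.82% of all promoters. The windows of Psat1 and Asns lay inside the annotated gene, with 0 bases before every annotated transcript. Sequence upstream of the whole gene was therefore not searched for either motif in Psat1 and Asns. A match is only a description of the sequence, and these windows do not cover elements further away.

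Among the enzymes that carry the folate-bound carbon onward, Mthfd1 and Mthfd1l rose, and Mthfd2 and Aldh1l2 did not pass the test. Mthfd1, the cytosolic enzyme that joins formate to tetrahydrofolate and interconverts the folate-bound forms, was at 27.3, 33.1 and 33.4 CPM in mock cultures 1, 2 and 3 and at 44.7, 64.1 and 55.6 CPM in NRG1 cultures 1, 2 and 3. All NRG1 samples were above all mock samples. The rise was 0.80 ± 0.13 on the log2 scale (SE, 95% interval 0.52 to 1.07, adjusted p = 0.0006), or 1.74-fold. Mthfd1l, which releases formate in mitochondria, was at 33.5, 43.4 and 43.7 CPM in mock and at 53.6, 63.6 and 59.3 CPM in NRG1 cultures 1, 2 and 3. These groups did not overlap either, and the difference was smaller, 0.55 ± 0.12 on the log2 scale (SE, 95% interval 0.28 to 0.82, adjusted p = 0.00596). The adjusted p of Mthfd1l was 0.0456 without culture 1 and 0.018 without culture 3.

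Mthfd2, the mitochondrial dehydrogenase and cyclohydrolase that precedes Mthfd1l in the same sequence of reactions, was at 84.8, 37.7 and 21.7 CPM in mock cultures 1, 2 and 3. In the NRG1 samples it was at 90.8, 45.3 and 26.5 CPM. The NRG1 sample was higher in each culture, but by log2 ratios of 0.10, 0.26 and 0.28, far less than the distance between cultures. The fitted value was 0.21 (95% interval -0.05 to 0.48, adjusted p = 0.241), an interval that does not reach a 1.5-fold rise. Aldh1l2, which oxidises the folate-bound formyl group to carbon dioxide in mitochondria, was at 64.5, 9.03 and 2.92 CPM in mock and at 65.1, 5.06 and 3.55 CPM in NRG1 cultures 1, 2 and 3. Its log2 ratios of 0.01, -0.81 and 0.27 had no common direction, and the log2 fold change was -0.14 (95% interval -0.56 to 0.28, adjusted p = 0.639). Counts of Aldh1l2 outside culture 1 were between 37 and 61 per sample.

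None of the 3 genes of serine synthesis passed the test, and Psat1 lay just outside it. Psat1, the aminotransferase of the second step, was at 44.2, 20.3 and 17.5 CPM in mock cultures 1, 2 and 3 and at 56.1, 34.1 and 26.1 CPM in the NRG1 samples. The NRG1 sample was higher in each culture, with log2 ratios of 0.34, 0.74 and 0.57, while the groups overlapped because culture 1 was high in both. NRG1 exceeded mock by 0.55 ± 0.14 on the log2 scale (SE, 95% interval 0.25 to 0.84, adjusted p = 0.0105), nearly the size of that of Mthfd1l. It passed with RLE scaling (adjusted p = 0.00841) and with no filter on low counts (adjusted p = 0.00329). It did not pass in DESeq2 (adjusted p = 0.0289), nor without culture 1, 2 or 3 (adjusted p = 0.0118, 0.0241 and 0.0547).

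Phgdh, the dehydrogenase that opens serine synthesis, was at 125.2, 207.2 and 211.2 CPM in mock cultures 1, 2 and 3 and at 109.2, 213.0 and 180.6 CPM in the NRG1 samples. Its log2 fold change was -0.13 (95% interval -0.38 to 0.13, adjusted p = 0.477), and the groups overlapped. Psph, the phosphatase of the last step, ranged from 31.3 to 42.3 CPM in mock and from 31.0 to 47.3 CPM in NRG1 samples, with a log2 fold change of -0.05 (95% interval -0.36 to 0.25, adjusted p = 0.818). Phgdh has 6 named pseudogenes in the RefSeq annotation, and Psat1, Shmt2 and Mthfd1 have 1 each, so reads shared with those copies may be missing from or misplaced in their counts. Shmt2 also overlaps Ndufa4l2 there, a gene with at most 2 counts in cultures 2 and 3 and 114 and 138 counts in culture 1. The strand setting of the counting was not given in the sources used here.

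Asns was at 154.3, 45.7 and 25.6 CPM in mock cultures 1, 2 and 3 and at 152.8, 41.2 and 28.0 CPM in the NRG1 samples. Samples of the same culture were nearly equal, with log2 ratios of -0.01, -0.15 and 0.13. The fitted value was -0.01 (95% interval -0.27 to 0.25, adjusted p = 0.959), so a rise or fall of 1.5-fold lies outside the interval.

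**Figure D2:**
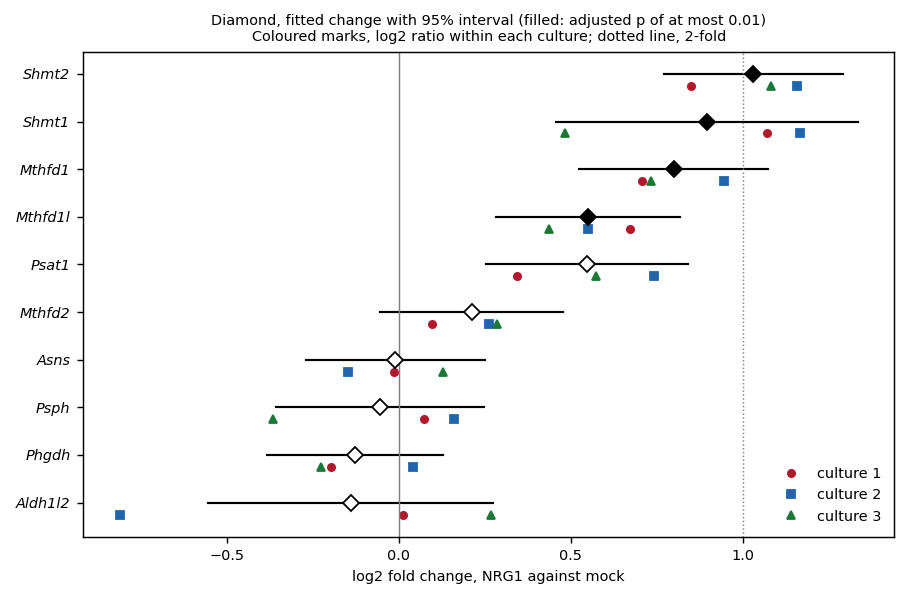
Log2 fold change between NRG1 and mock (horizontal axis) for each of the 10 genes (vertical axis); diamonds with lines give the fitted value and its 95% interval, filled where the gene passed the test, and coloured marks give the log2 ratio within each culture. The 4 filled diamonds belong to Shmt2, Shmt1, Mthfd1 and Mthfd1l, with values from 0.55 to 1.03, and Psat1 lies beside Mthfd1l.

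The genes also differed between cultures, and for several of them by more than between NRG1 and mock. Aldh1l2, Asns, Mthfd2 and Psat1 were higher in both samples of culture 1 than in the other 4 samples, and Phgdh was lower. Over all genes tested, 21% lay above and 20.3% below the other 4 samples in this way, so 4 and 1 of 10 are given as a description. Aldh1l2 in culture 1 was 10.8 times the mean of the other cultures in mock and 15.1 times in NRG1 samples. Asns was 4.33 and 4.41 times as high, Mthfd2 2.85 and 2.53 times and Psat1 2.34 and 1.86 times. Phgdh was at 0.60 and 0.55 of the mean of the others. Shmt2, by contrast, was 1.15 times as high in mock and 0.95 times in NRG1 samples, and Mthfd1 and Mthfd1l were lower in culture 1 than in both other cultures in each condition, at 0.82 and 0.75 of their mean for Mthfd1 and 0.77 and 0.87 for Mthfd1l. Aldh1l1, the cytosolic relative of Aldh1l2, singled out after its values were seen, had 15.9 and 16.7 CPM in culture 1 and 0 counts in the other 4 samples, and did not pass the filter.

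ATF4 and its textbook targets, a list of 21 genes of which 20 were tested, were compared between cultures in the same way. In 10 of the 20, culture 1 was above the other 4 samples (21% of all genes), and in 2 below. Atf4 itself was at 590.6 and 553.7 CPM in culture 1, against 309.4 to 386.2 CPM in the others. Trib3, a pseudokinase gene induced by ATF4, was at 27.8 and 30.8 CPM in culture 1 and between 1.65 and 3.15 CPM in the others. The fibroblast markers Thy1, Dcn, Lum and Tbx18 were at 0 in cultures 2 and 3, and the Schwann cell markers were lower in culture 1. The part of these differences in the levels of Asns, Aldh1l2, Mthfd2 and Psat1 was not tested.

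**Figure D3:**
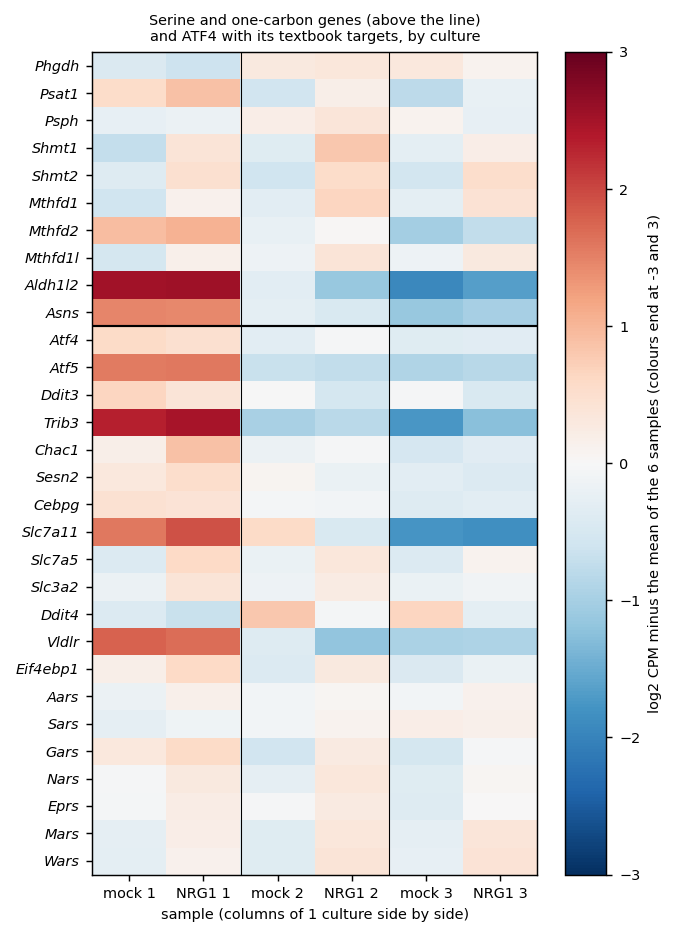
Colours give log2 CPM minus the mean of the 6 samples, for the 10 serine and one-carbon genes above the line and 20 tested genes of the ATF4 list below it (rows), with the mock and NRG1 sample of each culture side by side (columns). Aldh1l2, Asns, Trib3 and Vldlr are high in both samples of culture 1, whereas Shmt2 and Mthfd1 change between the mock and the NRG1 sample of every culture.

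With NRG1, most genes of this list did not pass the test. Atf4 had a log2 fold change of 0.07 (adjusted p = 0.74), Trib3 of 0.23 (adjusted p = 0.46), Chac1 of 0.34 (adjusted p = 0.167) and Ddit3 of -0.39 (adjusted p = 0.0564). Of the 20 tested genes 3 rose and 1 fell (6.31% and 5.51% of all genes tested), with a median of 0.23. Those that rose were Slc7a5, a carrier of large neutral amino acids (0.68, adjusted p = 0.00196), and the aminoacyl-tRNA synthetase genes Mars (0.61, adjusted p = 0.0022) and Wars (0.61, adjusted p = 0.0025). Ddit4, a stress-induced inhibitor of mTORC1 signalling, fell, with a log2 fold change of -0.69 (adjusted p = 0.0034).

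In the 8 lists of neighbouring genes, 14 of the 81 tested genes other than the 10 rose and 3 fell. Over all genes tested, 6.31% rose and 5.51% fell, and these shares also stand beside the counts of each list below. Among 14 tested folate genes, 3 rose and none fell, with a median of 0.02 (DESeq2 also called 3 and 0, and 1 gene was lower at an unadjusted p under 0.05). Gart and Atic, which place folate-carried carbon into purines, rose by 0.72 ± 0.12 (SE, adjusted p = 0.000671) and 0.77 ± 0.12 (SE, adjusted p = 0.00039) on the log2 scale. Atic was at 85.1, 73.8 and 77.3 CPM in mock cultures 1, 2 and 3 and at 131.4, 134.9 and 137.0 CPM in NRG1 cultures 1, 2 and 3, with no overlap. The groups of Gart overlapped, with 124.8 CPM in the NRG1 sample of culture 1 and 126.5 CPM in the mock sample of culture 3. Fpgs, which retains folates in the cell by adding glutamates, was at 27.2 ± 1.84 CPM in mock (SD, n = 3) and at 43.2 ± 0.73 CPM with NRG1 (SD, n = 3), with a difference of 0.67 on the log2 scale (adjusted p = 0.00232).

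Tyms and Mthfd2l of the same list did not pass the test. Tyms, thymidylate synthase, had a log2 fold change of -0.64 (adjusted p = 0.0574) and was lower in all 3 cultures. Mthfd2l, the paralog of Mthfd2, had one of -0.01 (adjusted p = 0.985).

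In the other lists, single genes passed. In the glycine cleavage system Gcsh, its carrier protein, rose by 0.77 ± 0.15 (SE, adjusted p = 0.00233), while Gldc, the decarboxylase, had a value of -0.52 (adjusted p = 0.116) and the median of 5 genes was -0.38. Among 14 tested genes of serine and glycine use, Srr, serine racemase, rose by 0.60 (adjusted p = 0.00407). Gatm, which uses glycine for creatine synthesis, fell by 0.90 on the log2 scale (adjusted p = 0.00275), and its level was 1.74 and 0.40 CPM in culture 1 against 21.8 to 43.1 CPM elsewhere. In the list named for the methionine cycle 2 of 7 tested genes rose. They were Ahcy, which removes S-adenosylhomocysteine (0.64, adjusted p = 0.00193), and Ahcyl2, listed as a relative of Ahcy (0.89, adjusted p = 0.000346). The list's median was 0.12.

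Of 7 tested carriers of serine and glycine only Slc1a5, which takes up glutamine, serine and other neutral amino acids, rose. It was at 81.8, 26.8 and 28.4 CPM in mock cultures 1, 2 and 3 and at 101.9, 72.5 and 68.6 CPM in NRG1 cultures 1, 2 and 3. The log2 ratios of 0.32, 1.43 and 1.27 show that its rise was small in culture 1, and the fitted value was 0.99 ± 0.18 (SE, adjusted p = 0.00141). The median of the carriers was -0.05. Among 7 tested genes of amide and aspartate metabolism, Asns included, edgeR called 0, as did DESeq2, and 1 gene had an unadjusted p under 0.05.

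Of 10 genes known to regulate growth metabolism, 3 rose, Myc and Mycn among them, and 1 fell. Myc, a transcription factor that is known to act on Shmt2 and other genes of the pathway, was at 36.9, 45.6 and 59.3 CPM in mock and at 75.9, 63.8 and 92.5 CPM in NRG1 cultures 1, 2 and 3. All its NRG1 samples lay above the mock samples, and the fitted rise was 0.72 ± 0.13 on the log2 scale (SE, adjusted p = 0.00167). Mycn, a relative of Myc, rose by 0.98 (adjusted p = 0.00234), while Nfe2l2, the regulator of the antioxidant response, fell by 0.59 on the log2 scale (adjusted p = 0.00441).

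**Figure D4:**
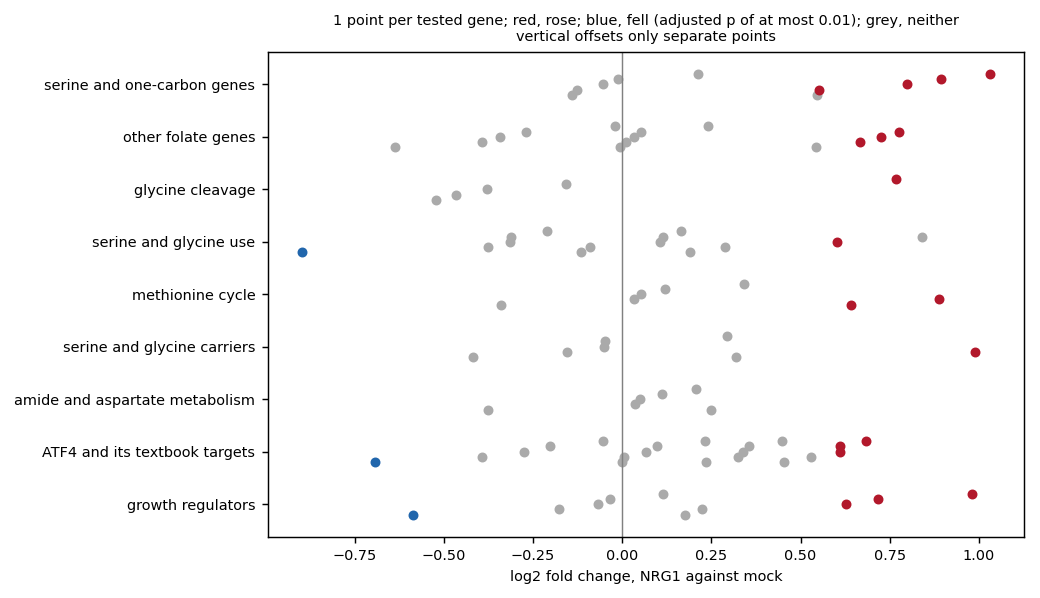
Log2 fold change between NRG1 and mock (horizontal axis) of each tested gene, grouped by list (vertical axis, with the 10 serine and one-carbon genes on top); red points rose, blue points fell and grey points did neither by the test. Of the points outside the top row 14 are red and 3 blue, and the row of amide and aspartate metabolism has neither.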

How the data were processed

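Poly(A) RNA of 6 samples was sequenced by Illumina. Mapping to rn5 was done by the authors with TopHat 2.0.10, and they deposited raw counts per RefSeq gene from htseq. The 5 summary lines of each file, 50.1% to 53.0% of alignments, were left out.

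Groups and replicate numbers came from the sample titles. edgeR 4.0.16 in R 4.3.3 was used with filterByExpr (minimum count 10), TMM, a quasi-likelihood fit blocked by replicate number, and Benjamini-Hochberg adjustment over 9740 genes. Standard errors (SE) follow from the fitted value and its F statistic, and log2 ratios within cultures used a prior count of 2. CPM, intervals and the 3-count floor cover counting error or the spread of 3 samples only.

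The study's methods state independent preparations and a paired design. Same-numbered samples deviated together, with r of 0.91, 0.67 and 0.81 across genes (different numbers, -0.80 to 0.51), without a p.

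The 10 genes and the lists were chosen with earlier results of these data known. Named from the lists are genes past an adjusted p of 0.01 (at most 4 each) and Atf4, Ddit3, Trib3, Chac1, Myc, Tyms and Mthfd2l, and a few genes under this rule are not reported here. In simulated counts for this comparison (9770 genes), edgeR with the block recovered 109 of 111 planted 2-fold changes, and 2 of 200 called genes were false. DESeq2 recovered 93 of the 111, and edgeR without the block 0 of them. Changes were planted only in genes with higher counts, all genes shared the same dispersion, and changes below 2-fold were not simulated. Promoter windows were read from RefSeq (GRCr8). Alternatives were DESeq2 1.42.0, RLE, other filters, no block, an adjusted p of 0.05 and leaving out each replicate.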

Additional observations from a re-analysis of the deposited data

How the results depend on the processing

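Without the replicate block, 0 of the 10 serine and one-carbon genes rose and 0 passed both thresholds, and 0 of the neighbouring genes rose and 0 fell. The smallest adjusted p of the 10 was then 0.139, with 4 of them at an unadjusted p under 0.05, and edgeR called 0 of all 9740 genes. In the simulated counts edgeR without the block also called 0 genes, although 200 changes were planted, so this setting could not show such changes. Leaving out each replicate in turn gave 2 to 3 of the 10 higher, 0 to 2 past both thresholds, 11 to 14 neighbouring genes higher and 0 to 4 lower. The 2 came without replicate 1 for genes that rose. For both thresholds, the 0 came without replicate 2 and the 2 without replicate 3, where the neighbouring genes also had 0 lower. Over all genes tested, these fits called 12%, 8.86% and 6.51% in either direction without replicates 1, 2 and 3, against 11.8% with all samples. At an adjusted p of at most 0.05, 5 of the 81 neighbouring genes were lower, against 11.7% of all genes. The looser limit admits more genes. DESeq2 with the block called 3 of the 10, and RLE scaling and no low-count filter 5 each. Their shares over all genes tested, in either direction, were 7.27%, 12.6% and 13%. No gene of the 10 was called lower under any of these alternatives. The difference between Shmt2 and Shmt1 ranged from -0.11 (without replicate 3) to 0.30 in the fits with 1 pair left out, so its sign turned. Signs also turned for genes near 0. With 1 replicate left out, Psph ranged from -0.17 to 0.14, Aldh1l2 from -0.29 to 0.082 and Asns from -0.055 to 0.054, and Asns was 0.00601 in DESeq2. The cause of these shifts was not tested. Depth limits Shmt1, with 41 to 160 counts, and Aldh1l2 outside culture 1.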

Other observations

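Genes of S phase and mitosis were read as a further list. Of 16 tested genes 1 rose (6.31% of all genes rose), and 3 were higher at an unadjusted p under 0.05. The gene that rose was Mcm5, a subunit of the replicative helicase, with a rise of 1.31 ± 0.25 on the log2 scale (SE, adjusted p = 0.00198). Its level was 4.20 ± 1.63 CPM in mock (SD, n = 3) and 10.3 ± 1.96 CPM with NRG1 (SD, n = 3), and the median of the list was 0.10. Mcm6, of the same helicase, had a log2 value of 0.48 (adjusted p = 0.0212) and Mcm2 one of 0.33 (adjusted p = 0.0942). Both had all NRG1 samples above all mock samples, as did 10.2% of all genes. The helicase genes Mcm3, Mcm4 and Mcm7 had values of 0.09, 0.10 and 0.13 (adjusted p = 0.733, 0.661 and 0.485), with overlapping groups. Mki67, a marker of dividing cells, had a log2 fold change of 0.06 (adjusted p = 0.858). The Schwann cell markers moved the other way, with 6 of 10 tested genes lower and 0 higher in edgeR (0 higher at an unadjusted p under 0.05 and in DESeq2) and a median of -0.65. Over all genes tested, 5.51% were lower. Sox10, which defines the lineage, had a log2 fold change of 0.11 (adjusted p = 0.579).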
